A study of Homo sapiens with 9 samples.

Results

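The genes described here are 10 regulators of the G1 phase of the cell cycle: the D-type cyclin genes CCND1, CCND2 and CCND3, their kinase genes CDK4 and CDK6, the E-type cyclin genes CCNE1 and CCNE2, their kinase gene CDK2, the retinoblastoma gene RB1 and the transcription factor gene E2F1. They were chosen by name from the 58735 genes of the count table, with no measured value in the rule but with earlier results of these data known. Of the 10, 9 passed the filter on low counts. CCND2 had 0 counts in all 9 libraries and was not tested. A count of 0 still allows up to 3 counts in a library, which was 0.108 to 0.199 CPM (counts scaled to a common library size) at these depths, counting error only.

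The study asked what loss of MPZL3, a predicted cell adhesion molecule, does in OVCAR4, an established human cell line that the labels give as ovarian serous adenocarcinoma. The cells received lentivirus for a scramble shRNA (scr control, genotype given as WT) or for 1 of 2 shRNAs against MPZL3 (shMPZL3 #1 and shMPZL3 #2, genotype given as MPZL3 knock-down). All 3 groups were selected with puromycin for 3 days and hold 3 biological replicates each by the study's methods, which describe drug selection of transduced cells and no picking of clones. Poly-A RNA-seq without strand information was made of each of the 9 cultures.

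Total counts were 15040102 to 27835841 per library. MPZL3 itself was measured at 26.1, 29.8 and 28.6 CPM in the 3 scr control cultures (replicates 1 to 3, as in all lists of values below), 5.79, 6.97 and 5.99 in those given shMPZL3 #1, and 13.9, 18.5 and 13.2 in those given shMPZL3 #2. Every knockdown library was therefore below every control library, and MPZL3 fell to 0.222 of control with shMPZL3 #1 and to 0.539 with shMPZL3 #2, a difference between the shRNAs of 1.28 ± 0.16 on the log2 scale (SE, edgeR's quasi-likelihood test, adjusted p = 5.72e-05). Of 8 ovarian serous carcinoma markers, 7 reached 1 CPM and WT1 did not, with at most 0.629 CPM. The summed CPM of 4 fibroblast markers was 15.9 to 20.2 in the controls, 35.2 to 51.1 for shMPZL3 #1 and 30.4 to 33.4 for shMPZL3 #2, carried by COL1A1 and LUM, while DCN had 0 counts throughout and PDGFRB at most 6. Sums for 4 leukocyte markers were 2.07 to 2.66 CPM in scr control, 2.26 to 4.21 with shMPZL3 #1 and 2.86 to 5.38 with shMPZL3 #2. For 3 endothelial markers they were 7.31 to 9.87 CPM in scr control and shMPZL3 #1 against 12.4 to 16.1 with shMPZL3 #2. The part of these markers in the results below was not tested.

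D-type cyclins bind CDK4 or CDK6 and couple growth signals to the cell cycle. The active kinases phosphorylate the RB protein, which otherwise holds E2F transcription factors in check, and released E2F switches on the genes for DNA replication together with the E-type cyclins, which activate CDK2 and drive entry into S phase. CDK inhibitors of the INK4 type (p15, p16, p18, p19) block CDK4 and CDK6, and those of the CIP/KIP type (p21, p27, p57) bind cyclin-CDK2 complexes. CCNE1 is a known amplification target in high-grade serous ovarian cancer, and E2F1 is itself a target of E2F, so the pathway feeds back on its own transcription.

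The letters that E2F is known to bind stand in the promoter of E2F1. They were searched as TTTCCCGC, TTTCGCGC, TTTGCCGC and TTTGGCGC on both strands, in RefSeq promoters of GRCh38.p14 that run from 250 bases before to 50 bases after each gene start. The members CCND3, CDK4, CDK6, CCNE1, RB1 and E2F1 had entries, 9 promoters in all, and E2F1 alone held a match. Among all 35116 promoters, 3.31% held one. In the 24 E2F target genes described further below, 13 of 33 promoters did (39.4%), from 12 of the 21 genes with an entry. The E2F1 stretch is shown with those of the 3 such target genes with a match that fell most with shMPZL3 #1, because E2F1 was the 1 gene of the 6 searched that held these letters. Matches are in capitals, each line reads 5′ to 3′ along the gene, and a match that begins with GCGG is the reverse complement.
E2F1, minus strand, chr20:33686393-33686422: tttcGCGGCAAAaaggaTTTGGCGCgtaaa
TYMS, plus strand, chr18:657603-657632: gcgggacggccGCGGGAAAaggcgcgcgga
CDC25A, minus strand, chr3:48188443-48188472: ggtggattccgTTTGGCGCcaactaggaaa
PCNA, minus strand, chr20:5126663-5126692: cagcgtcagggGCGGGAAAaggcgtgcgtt
The 2 matches of E2F1 lie 33 to 26 and 20 to 13 bases before the RefSeq start site. A match is a run of letters, and binding was not measured here.

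With shMPZL3 #1, transcripts of CCND1, CCNE1, CCNE2, CDK2 and RB1 fell and those of CDK6 rose. With shMPZL3 #2, CDK2 fell and E2F1 rose. CDK2 was thus the member that passed the test in the same direction with each shRNA, and CDK6, CCND1, CCNE1 and E2F1 differed between the shRNAs themselves. Called genes are those with an adjusted p under 0.05 in edgeR's quasi-likelihood test over 16928 genes, both shRNAs were compared with the same 3 scr control libraries, and log2 fold changes are given with their SE. With shMPZL3 #1, 1 of 9 tested members was called higher and 5 lower, where 16.8% of all genes were called higher and 15.3% lower. With shMPZL3 #2, 1 of 9 was called higher and 1 lower, against 9.36% and 5.8% of all genes. CDK2, 1 of the 9, was called with both shRNAs, as were 1759 of the 16928 genes in either direction. The libraries of shMPZL3 #1 lay wholly above the controls for 1 of the 9 and wholly below for 5 (23.9% and 22.8% of all genes), and those of shMPZL3 #2 for 2 and 3 (18.7% and 17.6%). These are bulk cultures, in which fewer cells in a phase of the cycle and less RNA per cell cannot be told apart.

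**Figure D1:**
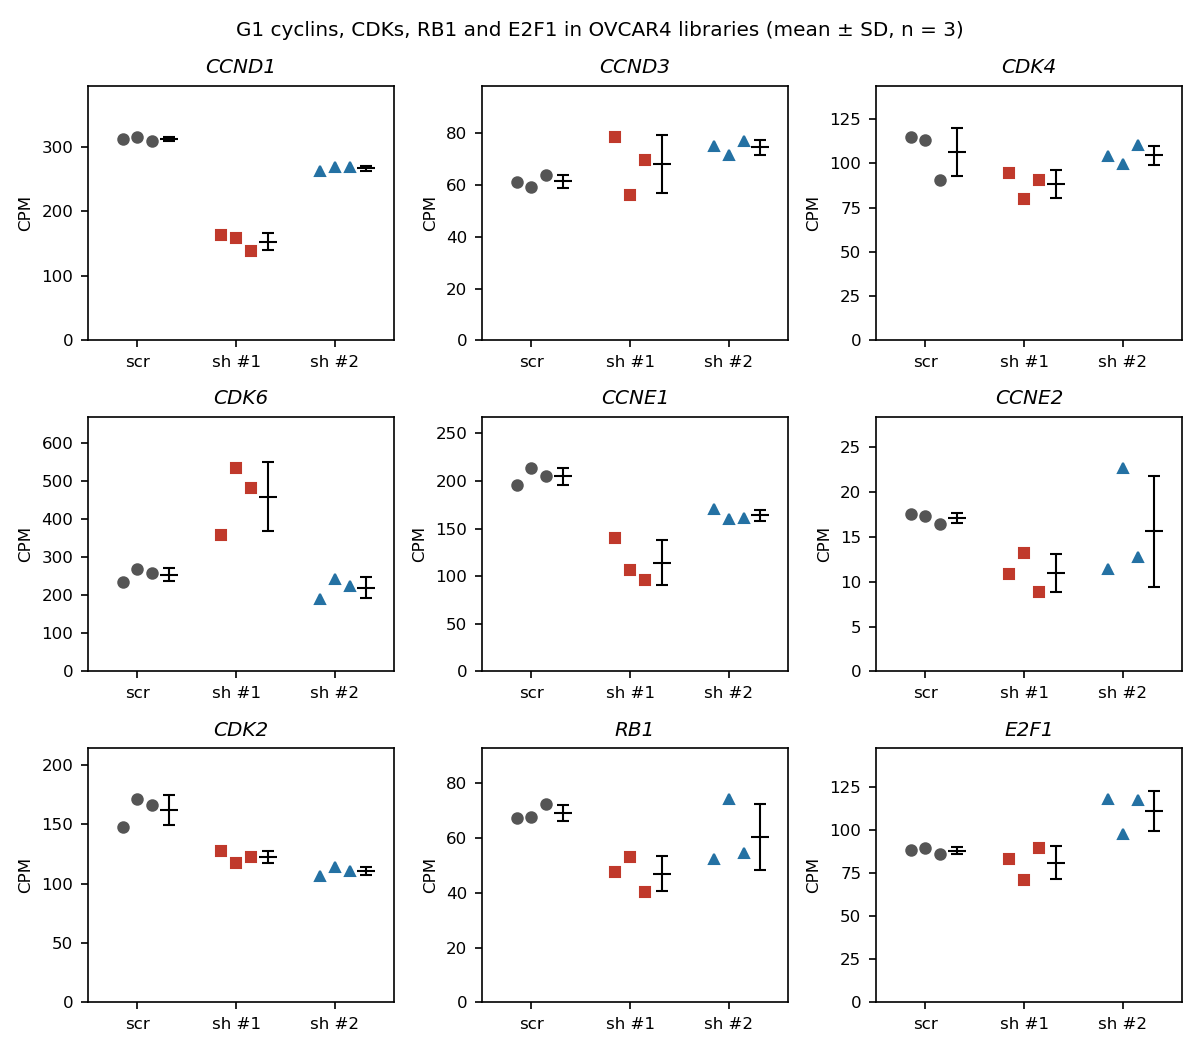
CPM of the 9 detected G1 genes in each library, by group (scr control circles, shMPZL3 #1 squares, shMPZL3 #2 triangles), with the group mean and SD of 3 libraries as a bar beside the points and each axis starting at 0. CCND1 reads 138 to 163 CPM with shMPZL3 #1 against 309 to 316 in scr control, CDK6 reads 358 to 535 against 236 to 268, and for CDK2 all 6 knockdown libraries lie below the 3 controls.

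Among the D-type cyclins, CCND1 (cyclin D1, ENSG00000110092, GRCh38 chromosome 11, 69641087 to 69654474, plus strand) was at 313, 316 and 309 CPM in scr control, at 163, 159 and 138 with shMPZL3 #1, and at 263, 270 and 269 with shMPZL3 #2. The groups did not overlap: shMPZL3 #1 was lowest, shMPZL3 #2 lay between, and scr control was highest. The fall with shMPZL3 #1 was -1.03 ± 0.09 (a fold of 0.491, adjusted p = 2.64e-06). The change with shMPZL3 #2 was -0.23 ± 0.09 and was not called (adjusted p = 0.108), although its unadjusted 95% confidence interval ran from -0.42 to -0.03. The difference between the shRNAs was 0.80 ± 0.09 (adjusted p = 3.52e-05). CCND1 shares 497 exon bases with the antisense gene LTO1, at 3564 counts in total against 44382, and unstranded reads on those bases cannot be assigned.

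CCND3 (cyclin D3, ENSG00000112576, chromosome 6, 41934933 to 42050357, minus strand) was at 61.2, 59.0 and 64.0 CPM in scr control, at 78.5, 56.1 and 69.7 with shMPZL3 #1, and at 74.9, 71.5 and 77.0 with shMPZL3 #2. The shMPZL3 #2 libraries were all above the controls, while those with shMPZL3 #1 spread to either side. Its change was 0.15 ± 0.11 (adjusted p = 0.338) and 0.28 ± 0.11 (adjusted p = 0.110), neither of them called. CCND2 (cyclin D2, ENSG00000118971, chromosome 12, 4273772 to 4305350, plus strand) was the member with 0 counts.

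Scaled for gene length, the D-type cyclins of the control libraries summed to 75.2 ± 0.290 CPM per kb, a sum that was 43.5 ± 3.39 for shMPZL3 #1 and 68.1 ± 0.821 for shMPZL3 #2 (SD over the 3 libraries of a group). CCND1 made up 85.9% ± 0.627, 73.0% ± 3.75 and 81.2% ± 0.657 of that sum. The ranges of the share did not overlap between the groups. On this scale most of the D-type cyclin signal was CCND1 in each group, and its share was lowest with shMPZL3 #1. The gene length is that of all annotated exons joined. Which transcript forms the cells made was not measured, so shares, ratios and orders across genes depend on that length.

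The D-type cyclin kinases went separate ways. CDK6 (ENSG00000105810, chromosome 7, 92604921 to 92836594, minus strand) was at 236, 268 and 259 CPM in scr control, at 358, 535 and 483 with shMPZL3 #1, and at 191, 244 and 225 with shMPZL3 #2. All shMPZL3 #1 libraries were above all others, and the shMPZL3 #2 libraries overlapped the controls at their lower end. CDK6 rose with shMPZL3 #1 by 0.85 ± 0.13 (a fold of 1.80, adjusted p = 0.000164). With shMPZL3 #2 the change was -0.21 ± 0.13 (adjusted p = 0.311), so that shMPZL3 #2 minus shMPZL3 #1 came to -1.06 ± 0.13 (adjusted p = 6.62e-05).

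CDK4 (ENSG00000135446, chromosome 12, 57747727 to 57756013, minus strand) was at 115, 113 and 90.8 CPM in scr control, at 94.6, 79.6 and 90.5 with shMPZL3 #1, and at 104, 99.6 and 110 with shMPZL3 #2. Scr control replicate 3 was low and fell within the shMPZL3 #1 range. Its change was -0.27 ± 0.11 with shMPZL3 #1 (adjusted p = 0.0690, 95% confidence interval -0.50 to -0.04) and -0.02 ± 0.11 with shMPZL3 #2 (adjusted p = 0.912, interval -0.25 to 0.21). Without scr control replicate 3 the fall with shMPZL3 #1 was called, at -0.38 (adjusted p = 0.0259). CDK4 shares 1369 exon bases with the antisense gene TSPAN31 (3543 counts in total against 18470).

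Per length, CDK6 over CDK4 came to 0.627 ± 0.104 in the controls, against 1.36 ± 0.379 for shMPZL3 #1 and 0.545 ± 0.0817 for shMPZL3 #2. It ranged from 0.978 to 1.74 with shMPZL3 #1 and stayed at or below 0.737 in the other libraries. The ratio of CCND1 to CDK6 stood at 3.12 ± 0.206 in the controls, at 0.878 ± 0.239 for shMPZL3 #1 and at 3.11 ± 0.355 for shMPZL3 #2. On this per-length scale CCND1 stood above CDK6 in all control and shMPZL3 #2 libraries. The mean ratio with shMPZL3 #1 was below 1, with a range of 0.725 to 1.15.

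**Figure D2:**
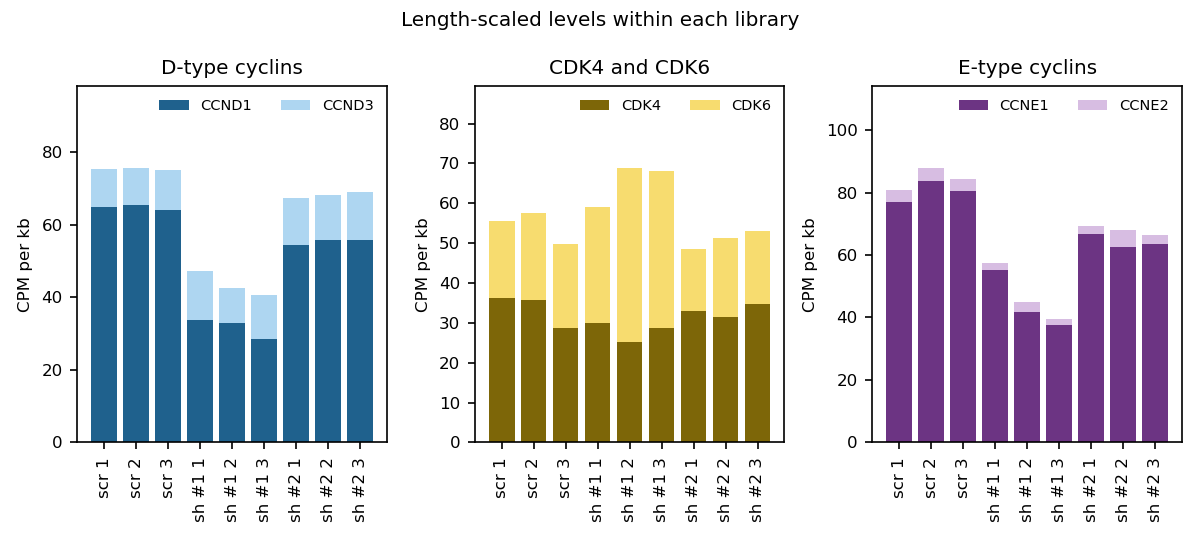
Stacked levels in CPM per kb of gene length for the D-type cyclins, CDK4 with CDK6, and the E-type cyclins in each of the 9 libraries, with axes from 0. The D-type sum is 40.6 to 47.2 with shMPZL3 #1 and 67.3 to 75.5 elsewhere, and CDK6 is 49.4% to 63.5% of the kinase bar with shMPZL3 #1 against 32.1% to 42.4% in the other libraries.

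Of the E-type cyclins, CCNE1 (cyclin E1, ENSG00000105173, chromosome 19, 29811898 to 29824308, plus strand) was at 196, 214 and 206 CPM in scr control, at 140, 107 and 95.9 with shMPZL3 #1, and at 170, 160 and 162 with shMPZL3 #2. The order of the groups was that of CCND1, with no overlap. CCNE1 fell with shMPZL3 #1 by 0.84 on the log2 scale (SE 0.12, a fold of 0.557, adjusted p = 8.09e-05). The change with shMPZL3 #2 was -0.32 ± 0.12 (adjusted p = 0.0763) and the difference between the shRNAs 0.52 ± 0.12 (adjusted p = 0.00740). The value with shMPZL3 #2 lay near the threshold, and with DESeq2 in place of edgeR it was called (adjusted p = 0.0491).

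CCNE2 (cyclin E2, ENSG00000175305, chromosome 8, 94879770 to 94896678, minus strand) was far lower, at 17.5, 17.3 and 16.4 CPM in scr control, at 10.8, 13.2 and 8.89 with shMPZL3 #1, and at 11.4, 22.7 and 12.7 with shMPZL3 #2. Replicate 2 of shMPZL3 #2 was above all controls and the other two were below them. CCNE2 fell with shMPZL3 #1 by 0.64 on the log2 scale (SE 0.22, adjusted p = 0.0324). This call was lost when any 1 of the scr control replicates (adjusted p = 0.0520 to 0.0788), shMPZL3 #1 replicate 1 (0.0816) or shMPZL3 #1 replicate 3 (0.138) was left out. CCNE2 is also uncertain because it shares 1629 exon bases with the antisense gene INTS8, which was read 8197 times in all against 2637. Of the E-type cyclin level per length, CCNE1 made up 95.4% ± 0.273 in the controls, 94.6% ± 1.22 for shMPZL3 #1 and 94.8% ± 2.07 for shMPZL3 #2.

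CDK2 (ENSG00000123374, chromosome 12, 55966769 to 55972784, plus strand), the kinase of the E-type cyclins, was at 148, 171 and 166 CPM in scr control, at 127, 118 and 123 with shMPZL3 #1, and at 107, 114 and 111 with shMPZL3 #2. All 6 knockdown libraries were below all 3 controls. The fall was -0.40 ± 0.09 with shMPZL3 #1 (a fold of 0.758, adjusted p = 0.00357) and -0.55 ± 0.09 with shMPZL3 #2 (a fold of 0.684, adjusted p = 0.000687). The libraries with shMPZL3 #2 were also all below those with shMPZL3 #1, but that difference of -0.15 ± 0.09 was not called (adjusted p = 0.315, 95% confidence interval -0.34 to 0.05). PMEL, antisense to CDK2 with 89 shared exon bases, had 2045 counts against 23967 and rose with shMPZL3 #2 by 1.09 (adjusted p = 0.000879).

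CCNE1 over CDK2, per length, came to 1.94 ± 0.0764 in the controls, 1.42 ± 0.247 for shMPZL3 #1 and 2.26 ± 0.153 for shMPZL3 #2. Its ranges, 1.89 to 2.03, 1.19 to 1.68 and 2.14 to 2.43, did not overlap. Relative to the control libraries, then, the E cyclin to kinase ratio lay lower with one shRNA and higher with the other.

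RB1 (ENSG00000139687, chromosome 13, 48303726 to 48599436, plus strand), which encodes the pocket protein that restrains E2F, was at 67.3, 67.8 and 72.5 CPM in scr control, at 47.5, 53.2 and 40.3 with shMPZL3 #1, and at 52.3, 74.3 and 54.4 with shMPZL3 #2. As for CCNE2, replicate 2 of shMPZL3 #2 was above the controls and the other two below them. RB1 fell with shMPZL3 #1 by 0.56 on the log2 scale (SE 0.13, a fold of 0.679, adjusted p = 0.00430). Its change with shMPZL3 #2 was -0.20 ± 0.13 (adjusted p = 0.344), which became -0.38 and was called without that replicate (adjusted p = 0.0347). The difference between the shRNAs was 0.36 ± 0.13 and missed the threshold (adjusted p = 0.0776), and it was called with no filter (0.0339), without shMPZL3 #1 replicate 2 (0.0452) and with the replicate number as a block (0.0212).

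E2F1 (ENSG00000101412, chromosome 20, 33675683 to 33686404, minus strand), the activator E2F whose promoter is shown above, was at 88.6, 89.4 and 86.0 CPM in scr control, at 83.0, 70.7 and 89.2 with shMPZL3 #1, and at 118, 97.7 and 117 with shMPZL3 #2. The shMPZL3 #2 libraries were all above the others, and those with shMPZL3 #1 overlapped the controls. E2F1 rose with shMPZL3 #2 by 0.33 ± 0.11 (a fold of 1.26, adjusted p = 0.0444), and its change with shMPZL3 #1 was -0.12 ± 0.11 (adjusted p = 0.430). The call with shMPZL3 #2 was lost without any 1 scr control replicate (adjusted p = 0.116 to 0.151), without shMPZL3 #2 replicate 1 (0.173) and without shMPZL3 #2 replicate 3 (0.159). The difference between the shRNAs was 0.45 ± 0.11 (adjusted p = 0.00899). Leaving out shMPZL3 #2 replicate 1 gave 0.40 (adjusted p = 0.0505) and leaving out its replicate 3 gave 0.41 (adjusted p = 0.0552).

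**Figure D3:**
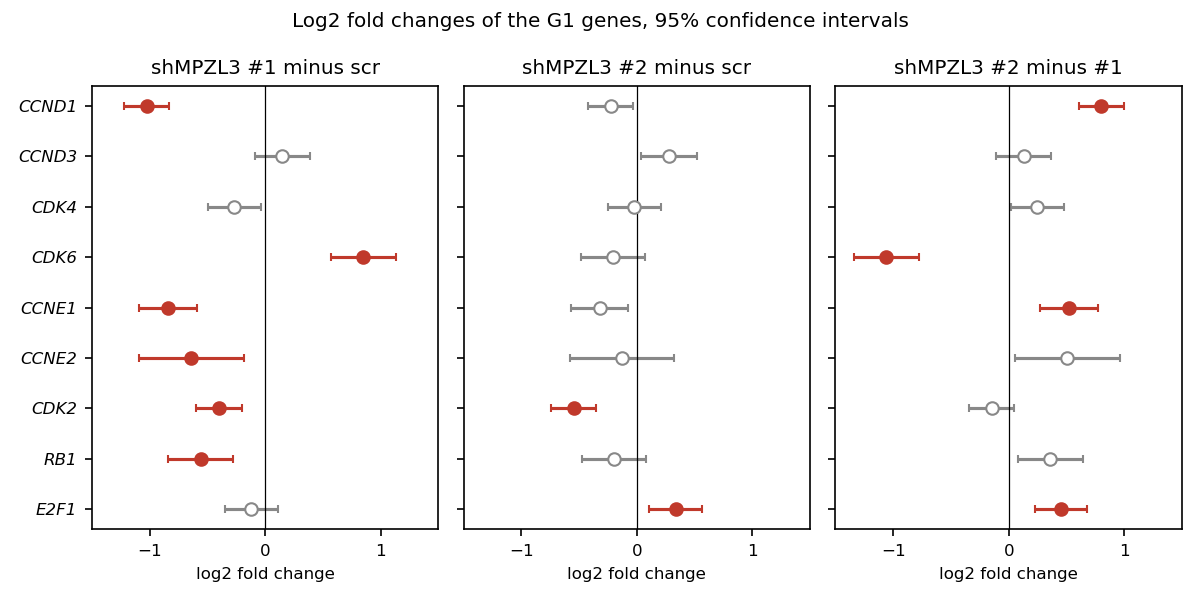
Log2 fold changes of the 9 tested G1 genes with 95% confidence intervals from edgeR, for shMPZL3 #1 minus scr, shMPZL3 #2 minus scr, and shMPZL3 #2 minus shMPZL3 #1, with called genes filled. The values with shMPZL3 #1 run from -1.03 for CCND1 to 0.85 for CDK6, and those with shMPZL3 #2 from -0.55 for CDK2 to 0.33 for E2F1.

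Between the shRNAs, 3 of 9 members were called higher with shMPZL3 #2 (CCND1, CCNE1, E2F1) and 1 lower (CDK6), where 7.56% of all genes were called in each direction. Their libraries did not overlap for 4 members that were higher and 2 that were lower with shMPZL3 #2, against 15.4% and 14.6% of all genes. In the study's own grouping, the 6 knockdown libraries against the 3 controls, edgeR called 2 of 9 members lower (CCNE1 and CDK2), against 6.4% of all genes. The study's methods name DESeq2 for that grouping. Here DESeq2 called 3 members lower, CCND1 among them, where it called 1400 of 16873 genes lower. No member was called higher in edgeR's quasi-likelihood test, against 9.36% of all genes, and the count was 0 also at an unadjusted p under 0.05 and by DESeq2. The 6 knockdown libraries lay wholly below the controls for 3 members and wholly above for 0, against 11% and 11.8% of all genes. CDK2 gave -0.47 ± 0.09 (adjusted p = 0.00533) and CCNE1 -0.56 ± 0.16 (adjusted p = 0.0348). In the two-sided exact permutation test over libraries CDK2 reached p = 0.0119, the smallest that 6 against 3 allows, while 3 against 3 cannot go below 0.1. That test treats the 6 libraries of these 2 shRNAs as 1 group, so its p-value does not extend to other shRNAs.

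The grouped call of CCNE1 was lost without any 1 scr control replicate (adjusted p = 0.0948 to 0.126) and without shMPZL3 #1 replicate 1 (0.0624). CCND1 was lower in all 6 knockdown libraries than in all controls, yet its grouped change of -0.57 ± 0.20 missed the threshold (adjusted p = 0.0694). The gene passed it without any 1 shMPZL3 #2 replicate (adjusted p = 0.0386 to 0.0474) and with DESeq2 (0.0281). By edgeR, CCND1 also passed with no filter (adjusted p = 0.00106). It passed too when the shRNAs were averaged in a fit of the 3 groups, at -0.63 (adjusted p = 3.34e-05). CDK6, with its shRNAs on either side of control, gave 0.42 ± 0.28 (adjusted p = 0.338). CCNE2 and RB1 were called lower in this grouping only when shMPZL3 #2 replicate 2 was left out among the single-library omissions, at -0.59 (adjusted p = 0.0168) and -0.49 (adjusted p = 0.0111), and CCND3 was called higher without shMPZL3 #1 replicate 2, at 0.28 (adjusted p = 0.0488).

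Per length, the order of the members in scr control was CCNE1 (80.4 CPM per kb), CCND1 (64.7), CDK2 (41.6), E2F1 (35.2), CDK4 (33.6), CDK6 (20.8), RB1 (10.7), CCND3 (10.6), CCNE2 (3.88) and CCND2 (0). The ranges of E2F1 and CDK4 overlapped, as did those of RB1 and CCND3, and the other neighbours were apart. With shMPZL3 #1 the top of the order closed up: CCNE1 (44.8), CDK6 (37.4), E2F1 (32.4), CCND1 (31.7) and CDK2 (31.5) each overlapped the next, before CDK4 at 27.9. With shMPZL3 #2 CCNE1 (64.3) and CCND1 (55.3) led again, E2F1 (44.3) came next, and no neighbouring ranges overlapped. By this scaling to annotated length, CDK6 was thus sixth in scr control and shMPZL3 #2 and second with shMPZL3 #1.

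The CDK inhibitors form the opposing arm. CDKN1A, which encodes p21, an inhibitor of CDK2 complexes and a target of p53, was at 38.5, 53.1 and 48.5 CPM in scr control, at 80.3, 93.3 and 113 with shMPZL3 #1, and at 106, 112 and 110 with shMPZL3 #2. Every knockdown library exceeded every control. CDKN1A rose by 1.03 ± 0.13 with shMPZL3 #1 (a fold of 2.04, adjusted p = 3.21e-05) and by 1.22 ± 0.13 with shMPZL3 #2 (a fold of 2.33, adjusted p = 1.1e-05), and the shRNAs differed by 0.19 ± 0.13 (adjusted p = 0.343). Per length, CDKN1A over CDK2 came to 0.367 ± 0.0315 in the controls, 0.997 ± 0.186 for shMPZL3 #1 and 1.26 ± 0.00754 for shMPZL3 #2, without overlap between control and knockdown.

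CDKN2B, which encodes the INK4 inhibitor p15, was at 92.8, 135 and 133 CPM in scr control, at 233, 271 and 328 with shMPZL3 #1, and at 142, 147 and 140 with shMPZL3 #2. The shMPZL3 #1 libraries stood apart, and those with shMPZL3 #2 were just above the controls. CDKN2B rose with shMPZL3 #1 by 1.20 ± 0.14 (a fold of 2.30, adjusted p = 1.56e-05), its change with shMPZL3 #2 was 0.25 ± 0.14 (adjusted p = 0.252), and the difference between the shRNAs was -0.96 ± 0.14 (adjusted p = 0.000245). CDK6, a target of this inhibitor, and CDKN2B were thus both higher with shMPZL3 #1 than with shMPZL3 #2.

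The other inhibitors moved less. CDKN1B, which encodes p27, averaged 69.8 ± 2.18 CPM in the controls, 56.0 ± 7.25 for shMPZL3 #1 and 69.7 ± 4.16 for shMPZL3 #2 (SD, n = 3), and fell with shMPZL3 #1 by 0.32 on the log2 scale (SE 0.11, adjusted p = 0.0314). That call was lost without any 1 scr control replicate (adjusted p = 0.0648 to 0.104), without shMPZL3 #1 replicate 2 (0.124) and without shMPZL3 #2 replicate 3 (0.0571). CDKN2A, whose row covers the transcripts of both p16 and p14ARF, was at 289 ± 6.05, 246 ± 19.9 and 310 ± 16.0 CPM, with a difference between the shRNAs of 0.33 ± 0.09 (adjusted p = 0.0236), lost without shMPZL3 #1 replicate 2 (0.0835), shMPZL3 #2 replicate 1 (0.0989) or replicate 3 (0.105), and in the fit on the 6 libraries compared (0.0715). CDKN1C, CDKN2C and CDKN2D were called in none of the 4 comparisons. Of the 7 inhibitor genes, 2 were called higher and 1 lower with shMPZL3 #1 (16.8% and 15.3% of all genes) and 1 higher with shMPZL3 #2 (9.36%), and none was called lower with shMPZL3 #2 by edgeR, at an unadjusted p under 0.05 or by DESeq2. Their median log2 fold change was -0.12 with shMPZL3 #1 and 0.04 with shMPZL3 #2, where the median of all genes was 0.01 and 0.00.

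**Figure D4:**
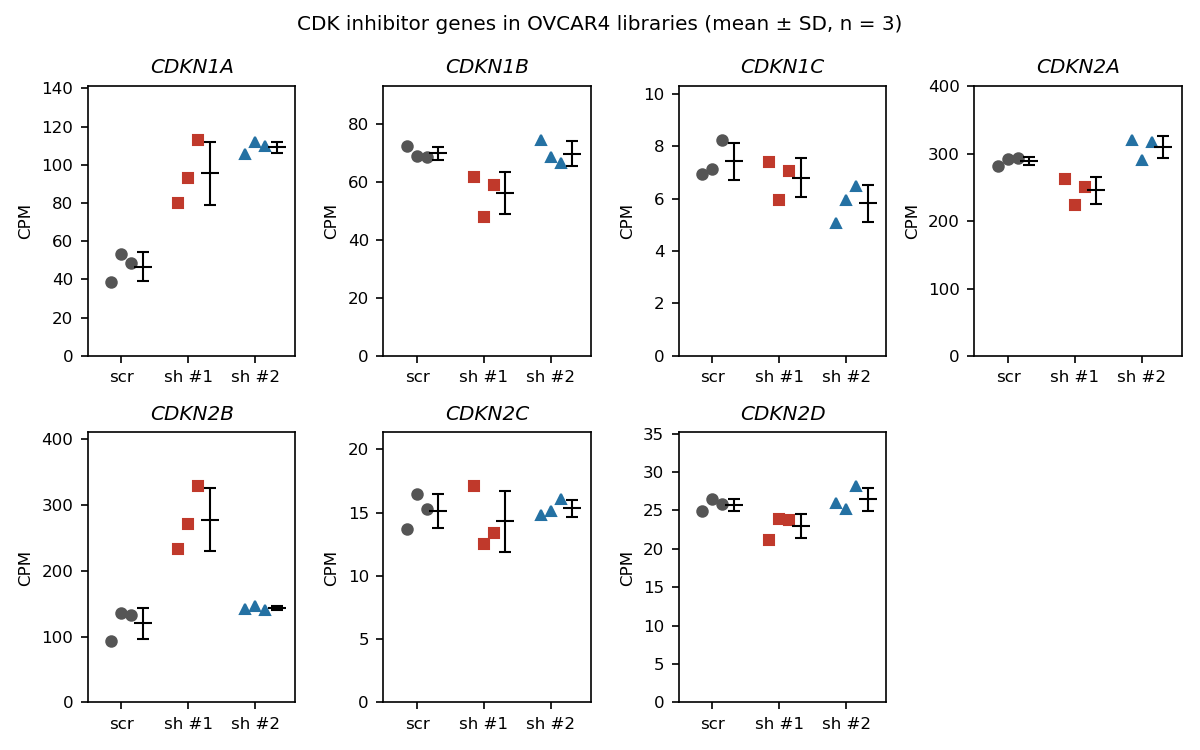
CPM of the 7 CDK inhibitor genes in each library by group, with the mean and SD of 3 libraries beside the points and axes from 0. CDKN1A lies at 38.5 to 53.1 in scr control and at 80.3 to 113 in the 6 knockdown libraries, and CDKN2B lies at 233 to 328 with shMPZL3 #1 and at 92.8 to 147 elsewhere.

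Outside the members, the RB and E2F families hold 11 further genes. With shMPZL3 #1, 7 of them were called lower and none higher by edgeR (1 at an unadjusted p under 0.05 and 1 by DESeq2), where 15.3% and 16.8% of all genes were, with a median of -0.40 against 0.01 over all genes. E2F8, an atypical repressor E2F, fell by 0.77 on the log2 scale (adjusted p = 0.000726), E2F5, a repressor E2F, by 0.75 (adjusted p = 0.000476), E2F2, an activator like E2F1, by 0.67 (adjusted p = 0.00108), and RBL1, which encodes the RB relative p107, by 0.53 (adjusted p = 0.0390). The RBL1 call was lost without any 1 scr control replicate (adjusted p = 0.0547 to 0.120), with at least 10 counts asked of every library (0.0520), and without shMPZL3 #1 replicate 3, where its change was -0.30 (0.173). With shMPZL3 #2, 1 was called lower, where 5.8% of all genes were, none was called higher by any of the 3 criteria, and the median was -0.07. The gene called was the activator gene E2F3, lower by 0.31 on the log2 scale (adjusted p = 0.0335). That call with shMPZL3 #2 was lost with no filter (adjusted p = 0.0611), without any 1 scr control replicate (0.0635 to 0.116), and without shMPZL3 #2 replicate 1 (0.123) or replicate 3 (0.0872). E2F3 was also among the genes called lower with shMPZL3 #1 (-0.28, adjusted p = 0.0346), and its difference between the shRNAs was not called (adjusted p = 0.827). Between the shRNAs, 4 of the 11 were called higher with shMPZL3 #2 and 1 lower, where 7.56% of all genes were called in each direction. Those higher were E2F2 (0.72 ± 0.13), E2F5 (0.65 ± 0.13), E2F7 (0.50 ± 0.13) and TFDP1 (0.35 ± 0.09), the gene of an E2F dimer partner, at adjusted p of 0.00155, 0.00347, 0.0150 and 0.0132. E2F7 lost its call without shMPZL3 #2 replicate 3 (0.0639), and TFDP1 without shMPZL3 #2 replicate 1 (0.0612) and in the fit on the 6 libraries compared (0.05002). In the grouped comparison 2 of the 11 were called lower, E2F8 (adjusted p = 0.0189) and E2F3 (adjusted p = 0.0365), against 6.4% of all genes. E2F8 was not called without scr control replicate 1 (0.0884) or replicate 2 (0.0952). E2F3 was not called with no filter (0.109) or without any 1 scr control replicate (0.0840 to 0.161), shMPZL3 #1 replicate 1 (0.0853) or replicate 3 (0.0512), or shMPZL3 #2 replicate 1 (0.0557) or replicate 3 (0.0650).

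Downstream, 24 genes that E2F is known to switch on for DNA replication and S phase entry were counted. With shMPZL3 #1, 19 of the 24 were called lower, where 15.3% of all genes were, and all 24 had a log2 fold change below 0, from -1.03 to -0.07, with a median of -0.55 against 0.01 over all genes. The largest falls were those of CCNA2, the cyclin of S phase (-1.03 ± 0.14, adjusted p = 6.34e-05), CHEK1, a kinase of the replication checkpoint (-0.91 ± 0.14, adjusted p = 0.000131), TYMS, the enzyme of thymidylate synthesis whose promoter is shown above (-0.78 ± 0.13, adjusted p = 0.000286), and RRM1, a ribonucleotide reductase subunit (-0.77 ± 0.12, adjusted p = 0.000199). E2F1 itself was at -0.12 in the same comparison. No gene of the list was called higher by edgeR, at an unadjusted p under 0.05 or by DESeq2.

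With shMPZL3 #2, 5 of the 24 were called lower, against 5.8% of all genes, and the median was -0.14 against 0.00. CCNA2 fell by 0.57 on the log2 scale (SE 0.14, adjusted p = 0.0112), CHEK1 by 0.54 (SE 0.14, adjusted p = 0.0131) and RRM1 by 0.49 (SE 0.12, adjusted p = 0.0122). These 3 calls were lost without shMPZL3 #2 replicate 3, at an adjusted p of 0.0662 for CCNA2, 0.100 for CHEK1 and 0.0575 for RRM1. None was called higher by edgeR or DESeq2, and 1 was at an unadjusted p under 0.05. Between the shRNAs 16 of the 24 were higher with shMPZL3 #2 (7.56% of all genes), by up to 0.61 ± 0.12 for MYBL2, a transcription factor gene of the S to G2 program (adjusted p = 0.00333), and 0.57 ± 0.12 for TK1, thymidine kinase (adjusted p = 0.00308). In the grouped comparison 6 were called lower (6.4% of all genes), with a median of -0.30 against 0.02.

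The 10 genes for CDK activation and cyclin turnover gave 1 called higher and 2 lower with shMPZL3 #1, shares near the 16.8% and 15.3% of all genes. CKS1B, whose product helps the SKP2 ubiquitin ligase recognise p27, fell by 0.93 on the log2 scale (SE 0.11, adjusted p = 2.35e-05), and SKP2 itself by 0.68 (SE 0.12, adjusted p = 0.000355). USP2, a deubiquitinase known to act on cyclin D1, rose with each shRNA, by 0.64 ± 0.18 (adjusted p = 0.0125) with shMPZL3 #1 and by 0.97 ± 0.18 (adjusted p = 0.00146) with shMPZL3 #2; the former was lost without scr control replicate 1 (0.0702). FBXO4, an F-box protein linked to cyclin D1 turnover, was lower with shMPZL3 #2 than with shMPZL3 #1 by -0.78 ± 0.22 (adjusted p = 0.0258), a call lost without shMPZL3 #1 replicate 2 (0.0960) or shMPZL3 #2 replicate 1 (0.0803) or replicate 3 (0.104).

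**Figure D5:**
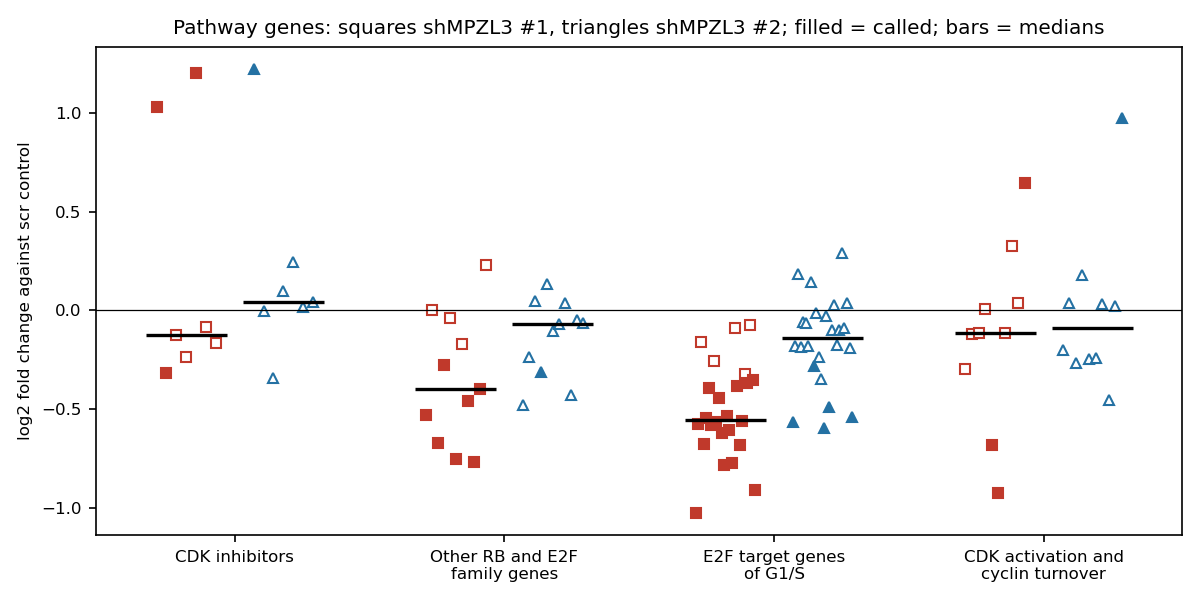
Log2 fold changes against scr control of the genes of 4 pathway lists (7 CDK inhibitors, 11 other RB and E2F family genes, 24 E2F target genes and 10 genes of CDK activation and cyclin turnover), with shMPZL3 #1 as squares, shMPZL3 #2 as triangles, called genes filled and medians as bars. The E2F target genes have medians of -0.55 with shMPZL3 #1 and -0.14 with shMPZL3 #2.

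The genes with the profile most like a member's were searched among 9887 protein-coding genes over the 9 libraries, by the root mean square difference of log2 CPM centred on each gene's mean. For CCND1 these were DLAT (0.0826), CKS1B (0.0831) and NIP7 (0.0864), where the profile of CCND1 itself had a root mean square of 0.446. For CDK6 they were ATP7A (0.0775), MYO5A (0.0970) and KAT2B (0.105), for CCNE1 FAM83D (0.0625), NPTX2 (0.0711) and UBE2C (0.0726), and for CDK2 FGFR2 (0.0799), RHEX (0.0947) and CIPC (0.0976). For E2F1 they were APEX2 (0.0497), AARS (0.0610) and SLC25A29 (0.0627), and for RB1 SLC25A36 (0.0653), SRI (0.0663) and RTKN2 (0.0675). CCNE2 was most like TMED5 (0.113), ZNF680 (0.137) and RB1 (0.143), the 1 case in which a member stood among another's nearest profiles. CKS1B is also on the list of genes for cyclin turnover above. The 9 libraries share their 3 groups, so these are descriptions of likeness across 9 values.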

How the data were processed

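RNA-seq of 9 OVCAR4 libraries was analysed, 3 per group, assigned by their labels. The authors aligned reads with HISAT2 2.0.5 and counted them with featureCounts 1.5.0-p3 on hg38, per the submitters' processing notes, and deposited raw counts per gene, neither normalized nor pooled. The libraries are unstranded, so reads on overlapping genes are ambiguous. The annotation is not named; all 58735 genes match GENCODE release 29 (GRCh38) in identifier, position and name. The members and gene lists were chosen with earlier results of these data known.

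Counts were tested with edgeR 4.0.16 (R 4.3.3; filterByExpr, TMM, quasi-likelihood, two-sided, Benjamini-Hochberg over 16928 genes, adjusted p under 0.05). The 6 knockdown libraries were compared with the 3 controls, as the study grouped them, and a 3-group fit gave each shRNA against control and shRNA against shRNA. CPM are counts divided by the TMM-scaled library size. Levels per kb use the gene length column, which equals the union of all annotated exons and not the length of the transcripts present. Log2 CPM used a prior count of 2. Exact permutation tests used SciPy 1.17.1. Alternatives, 17 per comparison, included DESeq2 1.42.0, other normalizations and filters, a replicate block and each library left out. The code was tested on simulated counts.

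Named genes are the 10 members, MPZL3, all CDK inhibitors, up to 4 called genes per list and comparison with the largest change, the 3 nearest profiles of each called member, and overlapping genes; 1 gene of the lists is not reported here by name. PCNA was named for its promoter, after its values were seen. Total counts of 15040102 to 27835841 set the precision. Replicates differed beyond counting noise (chi-square per gene 3.16 to 23.7), and p-values measure the spread between these cultures.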

Additional observations from a re-analysis of the deposited data

Results flagged for a closer look

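The response to knockdown differed between the shRNAs for 4 of the 9 tested members by the test of the difference itself (shMPZL3 #2 minus shMPZL3 #1, edgeR, log2 scale): CCND1 at 0.80, CCNE1 at 0.52, E2F1 at 0.45 and CDK6 at -1.06. The same test separated the shRNAs for CDKN2A at 0.33 and CDKN2B at -0.96 among the inhibitors, and for E2F2 at 0.72, E2F5 at 0.65, E2F7 at 0.50 and TFDP1 at 0.35 among the other RB and E2F family genes. Of the E2F target genes named by the rule, MYBL2 differed by 0.61, TK1 by 0.57, ORC1 by 0.51, CDC25A by 0.49, CCNA2 by 0.46 and TYMS by 0.44. For cyclin turnover the values were 0.68 for CKS1B, 0.44 for SKP2 and -0.78 for FBXO4. Some of these calls were lost when 1 library was left out: ORC1 (adjusted p = 0.0764 without shMPZL3 #1 replicate 3, 0.0656 and 0.0554 without shMPZL3 #2 replicates 1 and 3), CDC25A (0.0506 without shMPZL3 #1 replicate 3, 0.0603 without shMPZL3 #2 replicate 1) and SKP2 (0.0811 without shMPZL3 #1 replicate 3, 0.0510 and 0.0641 without shMPZL3 #2 replicates 1 and 3), besides E2F1, CDKN2A, E2F7, TFDP1 and FBXO4 as given above. MPZL3 also differed between the shRNAs, at 1.28, and its part in these values was not tested.

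Among the 6 knockdown libraries, 1 of the 9 tested members had a library far from the rest: for CCND3 the gap between shMPZL3 #1 replicate 2, the lowest, and the next library was 0.647 of the whole range. Chance flags about 1 in 20 groups.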

How the results depend on the processing

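For the members, 560 of 612 alternative values kept direction and side of the threshold, as did 1055 of 1139 for the other named genes. All calls of CDK2, those of CCND1, CDK6, CCNE1 and RB1 with shMPZL3 #1, and those of CCND1, CDK6 and CCNE1 between the shRNAs held in all 17 alternatives. In the grouped comparison, members called lower went from 2 to 3 with DESeq2, to 4 with no filter and to 1 with the replicate block. Averaging the shRNAs in the 3-group fit gave 4 lower and also called 1 higher (CDK6, adjusted p = 0.0480). With shMPZL3 #2, members called higher went from 1 to 2 with the block and in the fit on the 6 libraries compared, and members called lower from 1 to 2 with DESeq2, no filter or the block and to 3 in that fit. Between the shRNAs, members called higher went from 3 to 5 with no filter or the block. Leaving out 1 library gave 0 to 1 higher and 1 to 5 lower (grouped), 1 and 4 to 5 (shMPZL3 #1), 0 to 2 and 1 to 2 (shMPZL3 #2), and 2 to 4 and 1 (between the shRNAs). The cause of these moves was not tested.

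The labels number the replicates in each group and do not say what a shared number stands for. Same-numbered libraries had correlated deviations of -0.00143 to 0.218, not above 0.1 in every pair. Between the shRNAs each library was nearest its own number, at 0.137, 0.218 and 0.0966, against -0.147 to 0.00376 for different numbers. The main fits hold no block, and whether same-numbered cultures shared a batch was not tested. The block moved all genes called with shMPZL3 #2 from 1585 higher and 982 lower to 2083 and 1597, and between the shRNAs from 1279 and 1280 to 2015 and 1808. Under it CCNE1 was not called in the grouped comparison (adjusted p = 0.0532), while CDK4 (0.0368) and CDKN2A (0.0311) were called with shMPZL3 #1, CCND3 (0.0448) and CCNE1 (0.0236) with shMPZL3 #2, and CCNE2 (0.0364), RB1 (0.0212) and CDKN1B (0.0174) between the shRNAs.

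Signs turned only for changes not called in the main fit (log2 scale), the largest of them -0.13 for CCNE2 with shMPZL3 #2. With a library left out, CDKN2C ranged from -0.104 to 0.033 (grouped, positive also at 0.013), from -0.207 to 0.0049 (shMPZL3 #1) and from -0.056 to 0.083 (shMPZL3 #2, negative also at -0.0047). With shMPZL3 #2, CDK4 ranged from -0.134 to 0.027, CCNE2 from -0.501 to 0.031 and CDKN1B from -0.066 to 0.047, and CDKN1B was also at 0.0038 (upper quartile), 0.0014 (no filter), 0.018 (10 counts in every library), 0.012 (protein-coding genes) and 0.0042 (6 libraries). CCNE2 had the fewest counts of the tested members.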
